A study of Rana omeimontis with 12 samples.

Results

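Deoxyribonucleases cut DNA, and several families of them are at work when tissue is broken down. Enzymes of the DNase I family are mostly secreted or bound to membranes and digest DNA outside the cell at neutral pH. DNase II enzymes sit in lysosomes and digest the DNA of engulfed or dying cells at acid pH. Caspase-activated DNase, which caspases free from its inhibitor, cuts nuclear DNA between nucleosomes during apoptosis, and endonuclease G is a mitochondrial nuclease. The tadpole tail is resorbed under thyroid hormone at metamorphic climax, through the death and digestion of muscle, notochord and larval skin, while the liver is kept and remodelled.

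The deoxyribonucleases described here are the unigenes (assembled transcripts) of the frog *Rana omeimontis* whose protein annotation names a deoxyribonuclease, a DNase or endonuclease G, TatD enzymes left out. They were selected on their measured level as well, since they had to reach 1 FPKM (fragments scaled to transcript length and to the size of the library) in 3 or more of the 12 libraries. By this rule 8 unigenes were chosen of 56172, and 24085 unigenes reached the same level. A further match, a deoxyribonuclease gamma-like unigene (TRINITY_DN60461_c0_g1), stayed between 0 and 0.57 FPKM and was not counted, and 4 matching unigenes were TatD enzymes. Of those inside the rule, deoxyribonuclease I precursor reached 1 FPKM in 3 libraries and deoxyribonuclease-1-like in 4. The set was chosen by the tail values of deoxyribonuclease-1, annotated here as deoxyribonuclease-1-like, which was near 0 in control tails and high in T3 tails, so its tail values are given as a description with no test. Deoxyribonuclease-1-like could pass the rule through T3 tails alone, and deoxyribonuclease I precursor passed through liver libraries alone (control livers 1 and 2 and T3 liver 1).

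The libraries came from the tail and liver of tadpoles that had been raised for 3 days in 10 nM T3 (triiodothyronine, the active thyroid hormone) or in the vehicle DMSO (control), starting at Gosner stages 30 to 31. All tadpoles, controls included, hatched and grew in the laboratory from egg clutches collected in the wild, and food was given during treatment. The paper reports that T3 lowered food intake and body weight, so T3 and less feeding cannot be told apart here. T3 tadpoles had reached climax by their outward traits, so T3 was compared with a state before climax. There were 3 libraries each of T3 tails, control tails, T3 livers and control livers. Whether tadpoles were pooled, or gave both tissues, is not given in the sources used here, so p-values measure only the spread between these samples. FPKM summed to 773936 to 989765 in a tail library and 956551 to 1029985 in a liver library. Read counts were not used, which leaves the depth behind each value unknown.

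Muscle markers took 2.14% to 3.25% of summed FPKM in T3 tails and 2.88% to 5.9% in control tails, and at most 0.0102% in a liver library. Hepatocyte markers took 7.23% to 10.3% in T3 livers and 3.38% to 5.05% in control livers, and at most 0.00619% in a tail library. Both tissues therefore carried their defining markers. Control livers 1 and 2 stood apart, since markers of the exocrine pancreas took 8.13% and 10.1% of their summed FPKM. The other liver libraries had 0.0236% to 0.62%, and calls in the liver and for the difference between tissues are given with and without control livers 1 and 2.

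The unigene annotated as deoxyribonuclease-1-like (TRINITY_DN108470_c8_g4) held the most FPKM of the 8 in every T3 tail. Its annotation comes from *Xenopus tropicalis* and places it in the DNase I family. Deoxyribonuclease-1-like had 95.32, 205.38 and 172.85 FPKM in T3 tails, against 0.08, 0.44 and 0 FPKM in control tails. The lowest T3 tail was 217 times the highest control tail, and the T3 tails differed among themselves by up to 2.15 times. In T3 livers it had 0.42, 1.44 and 0.38 FPKM, and in control livers 0.10, 0.39 and 0.45 FPKM. The 9 libraries other than T3 tails thus lay between 0 and 1.44 FPKM, which is too low for a test in the liver. Because the files hold no counts, the 0 in control tail 3 says only that the unigene is listed at 0.

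On the log2(FPKM + 1) scale, which understates changes of low genes, deoxyribonuclease-1-like was 7.03 higher in T3 tails than in control tails. The difference on this scale was 9.46 with 0.1 in place of 1 and 4.91 with 5, since it rests on control values near 0. It ranked 10 among the 18429 unigenes tested in the tail by its difference, a description only, since it was picked on this contrast. By level it ranked 885, 475 and 535 in T3 tails 1 to 3, among 36716, 35764 and 34127 unigenes above 0. In bulk tissue, more RNA in each cell and more cells of a type that holds this RNA cannot be told apart.

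**Figure D1:**
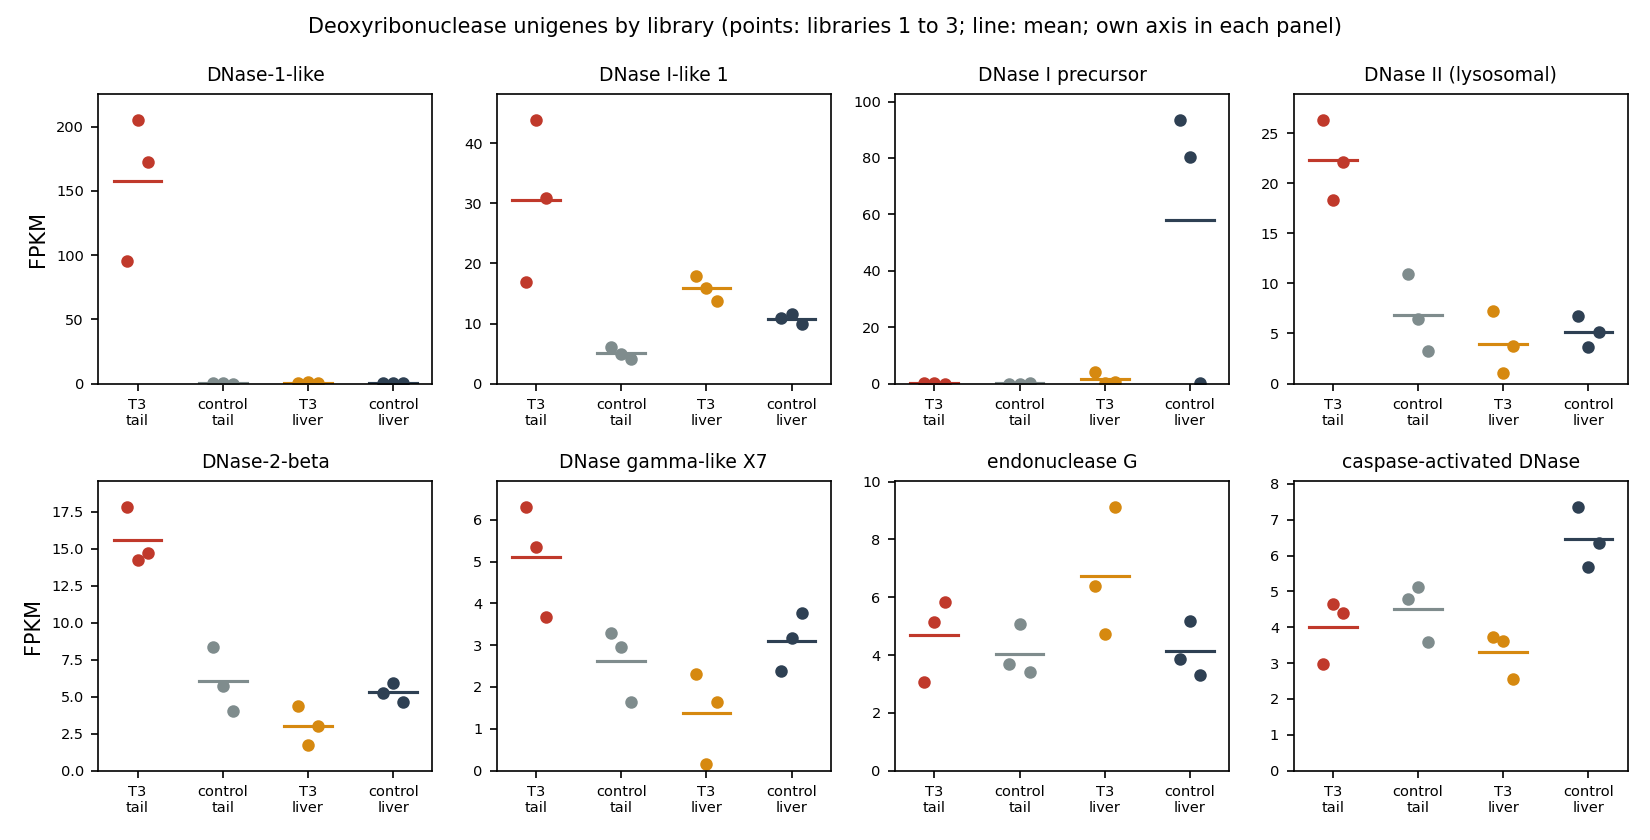
FPKM of the 8 deoxyribonuclease unigenes in T3 tails, control tails, T3 livers and control livers, each panel with its own axis from 0; points are libraries (n = 3 a group) and lines are means. Deoxyribonuclease-1-like lies between 95.32 and 205.38 FPKM in T3 tails and at 1.44 FPKM or less in the other 9 libraries, and deoxyribonuclease I precursor is high in control livers 1 and 2 alone.

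The 5 described unigenes with the pattern most like that of deoxyribonuclease-1-like, by Pearson correlation of log2(FPKM + 1) over the 12 libraries among 23275 compared, were also near 0 outside T3 tails. They were serpin B10-like (r = 0.993), MGC80550 protein (0.993), adult keratin RAK (0.993), cytosolic phospholipase A2 delta (0.992) and calpain-9-like (0.992). Adult keratin RAK, a keratin of adult frog skin, averaged 207 ± 105 FPKM in T3 tails and 0.15 ± 0.0819 FPKM in control tails (SD, n = 3 each). Calpain-9-like, a calcium-dependent protease, averaged 59.8 ± 24.0 FPKM in T3 tails and 0.0767 ± 0.133 FPKM in control tails. Serpin B10-like, of a family of protease inhibitors, averaged 8.77 ± 0.609 FPKM in T3 tails and was listed at 0 in all 3 control tails. The correlations describe 12 libraries that share treatment and tissue, and most of each comes from the contrast of T3 tails with the rest.

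Some epidermis markers moved in the same libraries. The 34 unigenes of that list took 0.288% to 0.48% of summed FPKM in T3 tails and 0.105% to 0.122% in control tails, with 5 to 7 and 5 of them at 0. Of its 19 descriptions tested in the tail, 8 rose and 2 fell, where 19.2% of all unigenes tested were called higher and 6.23% lower. The median log2 difference of the list was 0.41, against 0.31 for all unigenes. Keratin, type I cytoskeletal 12 averaged 1320 FPKM in T3 tails and 5.2 FPKM in control tails (log2 difference 7.77, adjusted p = 9.5e-08 by limma). Keratin, type I cytoskeletal 19 fell to 164 FPKM in T3 tails, against 579 FPKM in control tails (-1.83, adjusted p = 0.00117). Keratins type II cytoskeletal 5 and type II cytoskeletal 1-like averaged 906 and 385 FPKM in T3 tails, against 0.823 and 1.97 FPKM in control tails. Of the cell junction members tested, plakophilin-1 and desmoglein-4 rose. Desmoplakin, envoplakin, periplakin, plakophilin 2, plakophilin 3 and desmoglein-2 were not called (junction members were named after their values were seen). The part of the epidermis in the level of deoxyribonuclease-1-like was not tested.

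Deoxyribonuclease I-like 1 precursor (TRINITY_DN95403_c2_g2, annotated from *Xenopus laevis*) is a second enzyme of the DNase I family and, unlike the first, was measured above 4 FPKM in all 12 libraries. It had 16.84, 43.93 and 30.83 FPKM in T3 tails, against 6.15, 4.86 and 4.08 FPKM in control tails. The groups did not overlap, and T3 tail 1 was the lowest T3 tail here as it was for deoxyribonuclease-1-like. The unigene rose by 2.30 ± 0.34 (SE) on the log2 scale (adjusted p = 0.00102, limma with Benjamini-Hochberg adjustment over all unigenes tested).

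In the liver deoxyribonuclease I-like 1 precursor had 17.93, 15.98 and 13.83 FPKM after T3, against 10.85, 11.64 and 9.96 FPKM in controls. These groups did not overlap either, but the difference of 0.51 ± 0.20 did not pass the test (adjusted p = 0.133, limma). Under median-ratio scaling, which centres each library on its typical gene, it was 0.82 (adjusted p = 0.0457, limma). The T3 effect was larger in the tail than in the liver by 1.79 ± 0.41 (adjusted p = 0.0122, limma). This call was lost under median-ratio scaling (1.01, adjusted p = 0.106), under quantile normalization (1.25, adjusted p = 0.0573) and without control livers 1 and 2 (1.68, adjusted p = 0.101).

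In control tadpoles the same unigene was higher in the liver when all control livers were used. Control livers exceeded control tails by 0.98 ± 0.29 on the log2 scale (adjusted p = 0.0157, limma), and without control livers 1 and 2 the value was 0.88 (adjusted p = 0.195). After T3 the order of the means was the other way round, with 2 of the 3 T3 tails above every T3 liver and T3 tail 1 within the range of the T3 livers.

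DNase II, the lysosomal enzyme that digests the DNA of engulfed cells, was represented by deoxyribonuclease II, lysosomal precursor (TRINITY_DN92614_c5_g1, annotated from *Xenopus laevis*). It had 26.32, 18.37 and 22.11 FPKM in T3 tails, against 10.97, 6.40 and 3.27 FPKM in control tails. Every T3 tail was above every control tail, and control tail 3 was the lowest tail. The rise was 1.67 ± 0.36 (adjusted p = 0.00729, limma).

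In the liver deoxyribonuclease II had 7.20, 1.04 and 3.70 FPKM after T3, against 6.71, 3.69 and 5.17 FPKM in controls. The groups overlapped and T3 liver 2 was the lowest of all 12 libraries. The difference of -0.50 ± 0.49 did not pass (adjusted p = 0.533, limma), and it was 0.03 without T3 liver 2. The T3 effects in tail and liver differed by 2.17 ± 0.65 (adjusted p = 0.0378, limma), a call that 14 of 23 alternatives lost, among them the fit without control livers 1 and 2 (2.20, adjusted p = 0.142).

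The related Deoxyribonuclease-2-beta precursor (TRINITY_DN105438_c1_g1, annotated from *Rana catesbeiana*), whose mammalian relative clears nuclear DNA from lens fibre cells, also rose in the tail. It had 17.83, 14.25 and 14.68 FPKM in T3 tails, against 8.34, 5.70 and 4.02 FPKM in control tails. The groups did not overlap, and the rise was 1.28 ± 0.28 (adjusted p = 0.00855, limma). It had 4.33, 1.73 and 3.02 FPKM in T3 livers, against 5.25, 5.95 and 4.64 FPKM in control livers.

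All 3 T3 livers lay below all 3 control livers for Deoxyribonuclease-2-beta, by -0.69 ± 0.29, without passing the test (adjusted p = 0.159, limma). The T3 effects in tail and liver differed by 1.97 ± 0.40 (adjusted p = 0.00644, limma), and by 1.82 without control livers 1 and 2 (adjusted p = 0.0741). In control tadpoles neither DNase II unigene differed between liver and tail beyond the test. Control liver minus control tail was -0.25 for deoxyribonuclease II (95% interval -1.25 to 0.74) and -0.12 for Deoxyribonuclease-2-beta (-0.73 to 0.49).

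Lysosomal DNases are prominent in macrophages, so markers of that cell type were read in the same libraries. The 13 macrophage unigenes took 0.26% to 0.33% of summed FPKM in T3 tails and 0.0305% to 0.103% in control tails, with 0 to 2 and 1 to 2 of them at 0. Cathepsin S precursor, a lysosomal protease, made up most of it, with 2070 ± 227 FPKM in T3 tails and 291 ± 183 FPKM in control tails (SD, n = 3 each). Without the cathepsin S unigenes, and 9 unigenes then left, the share was 0.0413% to 0.0462% in T3 tails and 0.0143% to 0.0451% in control tails. Of the 7 descriptions tested in the tail 2 rose, cathepsin S and the C1q B chain, and 0 fell. Of all unigenes tested there 19.2% were called higher and 6.23% lower.

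Other macrophage genes gave no call in the tail. C1q subunit A, part of the first complement component that macrophages make, averaged 82.6 FPKM in T3 tails and 89.5 FPKM in control tails, and subunit C had a log2 difference of 0.71 (adjusted p = 0.188, limma). In the liver, where the DNase II unigenes were not called, macrophage unigenes took 0.0128% to 0.0516% after T3 and 0.0657% to 0.0937% in controls. Of the 6 descriptions tested in the liver 1 fell and 0 rose (all unigenes 8.67% and 3.83%). It was C1q subunit A (-2.20, adjusted p = 0.0133, limma). Its estimate was -2.07 without control livers 1 and 2, a fit with 1 control liver left that cannot decide the call. The tail-minus-liver difference was called as higher for 4 of 7 macrophage descriptions and as lower for 0 (all unigenes 14.3% and 3.48%). Cathepsin S precursor had 4.22 (adjusted p = 0.00176, limma). C1q subunits A, B and C had 2.22, 2.73 and 2.59 (adjusted p = 0.0342, 0.0112 and 0.0254, limma). Without control livers 1 and 2, with 1 control liver left, the estimates were 4.42, 2.09, 2.99 and 2.29. The part of macrophages in the DNase II values was not tested.

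Deoxyribonuclease gamma-like isoform X7 (TRINITY_DN92873_c5_g1) belongs to the DNase I family, whose gamma enzyme in mammals degrades chromatin of dying cells. It had 6.31, 5.36 and 3.68 FPKM in T3 tails, against 3.29, 2.95 and 1.65 FPKM in control tails. The groups did not overlap, yet the difference of 0.76 ± 0.29 did not pass (adjusted p = 0.0762, limma), and with library sums made equal it was 0.94 (adjusted p = 0.0415). It had 2.32, 0.15 and 1.63 FPKM in T3 livers, against 2.38, 3.18 and 3.77 FPKM in control livers.

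The liver difference of the gamma-like unigene was -0.92 ± 0.41 (adjusted p = 0.179, limma), with T3 liver 2 again the lowest library. Between tissues the T3 effect differed by 1.67 ± 0.51 (adjusted p = 0.0402, limma). This call rested on values near the threshold, and 13 of 22 alternatives lost it, among them the fit without control livers 1 and 2 (1.90, adjusted p = 0.117).

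Caspase-activated DNase and endonuclease G, the nucleases that act on nuclear DNA inside the dying cell, showed no call in the tail. Caspase-activated DNase (DNA fragmentation factor, beta polypeptide, TRINITY_DN89985_c1_g2) had 2.96, 4.65 and 4.40 FPKM in T3 tails, against 4.78, 5.13 and 3.58 FPKM in control tails. The groups overlapped, and the difference of -0.14 had a 95% interval of -0.72 to 0.43 (adjusted p = 0.715, limma). Its sign turned, to 0.05, with library sums made equal.

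In the liver the values of caspase-activated DNase did not overlap. It had 3.74, 3.61 and 2.55 FPKM in T3 livers, against 7.36, 5.67 and 6.34 FPKM in control livers. The difference of -0.80 ± 0.23 lay just outside the threshold (adjusted p = 0.0597, limma), and it passed when only unigenes at 5 FPKM or more in 3 libraries were tested (adjusted p = 0.0385). The T3 effects in tail and liver differed by 0.66 (95% interval -0.04 to 1.35, adjusted p = 0.165).

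Endonuclease G (TRINITY_DN110147_c8_g1) had 3.08, 5.13 and 5.82 FPKM in T3 tails, against 3.69, 5.06 and 3.40 FPKM in control tails. The groups overlapped, with a difference of 0.15 (95% interval -0.47 to 0.77, adjusted p = 0.721, limma) that was -0.17 under median-ratio scaling and -0.21 under quantile normalization. It had 6.38, 4.73 and 9.13 FPKM in T3 livers, against 3.86, 5.19 and 3.32 FPKM in control livers. Of these groups too the ranges overlapped, and the difference of 0.57 did not pass (adjusted p = 0.218, limma).

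Deoxyribonuclease I precursor (TRINITY_DN109490_c3_g1, annotated from *Rana catesbeiana*) carries the name of the classical DNase I, which the exocrine pancreas and other digestive glands secrete. Whether this unigene or deoxyribonuclease-1-like is the DNase I gene was not resolved, since no sequences were used. Deoxyribonuclease I precursor had 4.03, 0.07 and 0.53 FPKM in T3 livers, against 93.52, 80.32 and 0.26 FPKM in control livers. Control livers 1 and 2 were the high libraries, and control liver 3 was below 2 of the T3 livers. Tails had 0.07, 0.12 and 0 FPKM after T3 and 0, 0 and 0.15 FPKM in controls, too low for a test there.

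The liver libraries with much deoxyribonuclease I precursor were those with much pancreatic RNA. The 52 pancreas marker unigenes took 0.62%, 0.0236% and 0.0438% of summed FPKM in T3 livers 1 to 3, against 8.13%, 10.1% and 0.0401% in control livers 1 to 3. For every 1000 FPKM of pancreas markers there were 0.662, 0.308 and 1.26 FPKM of deoxyribonuclease I precursor in T3 livers, against 1.12, 0.774 and 0.677 in control livers.

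The T3 difference of deoxyribonuclease I precursor in the liver was -3.40 ± 1.57 (95% interval -7.05 to 0.25, adjusted p = 0.194, limma). Without control liver 3 it was -5.44, given with no p-value. The only controls were then livers 1 and 2, through which, with T3 liver 1, the unigene had entered the set. Without control livers 1 and 2 the unigene was too low to be tested. The part of pancreatic RNA in these values was not tested. Since the unigene was chosen through liver libraries, its level in control livers against control tails is left as a description.

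**Figure D2:**
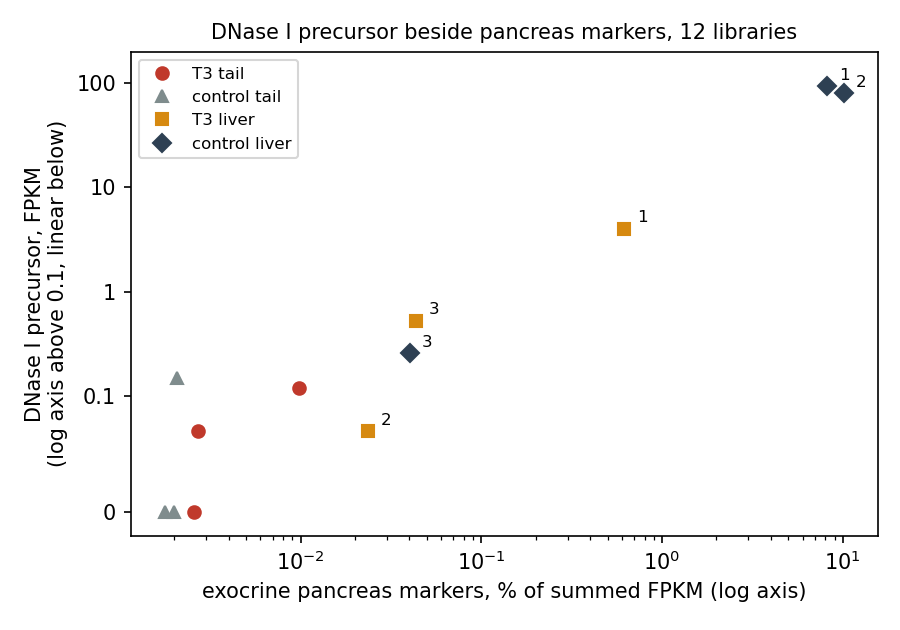
FPKM of deoxyribonuclease I precursor (y axis, log above 0.1 and linear below) against the share of summed FPKM taken by exocrine pancreas markers (x axis, log) in the 12 libraries, numbered for the livers. Control livers 1 and 2, at 93.52 and 80.32 FPKM, have the highest shares, 8.13% and 10.1%, and control liver 3 lies among the T3 livers.

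Counted over the family, 3 of the 6 unigenes tested in the tail without deoxyribonuclease-1-like rose and 0 fell. Of all 18429 unigenes tested there 25.4% were called, 19.2% as higher and 6.23% as lower, and the median log2 difference of all was 0.31. Relative to that median deoxyribonuclease I-like 1 precursor was 1.99 higher, deoxyribonuclease II 1.36 and Deoxyribonuclease-2-beta 0.97. These 3 calls held in all 16 alternatives of the tail, with adjusted p up to 0.0393 (limma).

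In the liver 0 of 7 unigenes tested were called, where 12.5% of 18923 unigenes were (3.83% as higher and 8.67% as lower), with a median of -0.26. At an unadjusted p below 0.05 limma gave 3, deoxyribonuclease I-like 1 precursor above and Deoxyribonuclease-2-beta and caspase-activated DNase below their controls. With control liver 3 as the only control, 0.813% of 15625 unigenes and 0 of the 6 deoxyribonucleases tested were called by limma, 0 also at an unadjusted p below 0.05. The tail-minus-liver difference was called, as higher, for 4 of 7 unigenes, against 14.3% of 24085 called higher, 3.48% lower and 17.8% in either direction. That count was 2 with a pseudocount of 0.1 and 1 under median-ratio scaling. The fit without control livers 1 and 2 left 1 control liver and cannot decide these calls. Its estimates are given with each unigene above. Control liver against control tail called deoxyribonuclease I-like 1 precursor as higher and, leaving deoxyribonuclease I precursor aside, no other unigene of the family, where 42.9% of all unigenes were called (22.5% as higher and 20.4% as lower). For deoxyribonuclease I-like 1 precursor the fit without control livers 1 and 2, with 1 control liver left, cannot decide this call.

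**Figure D3:**
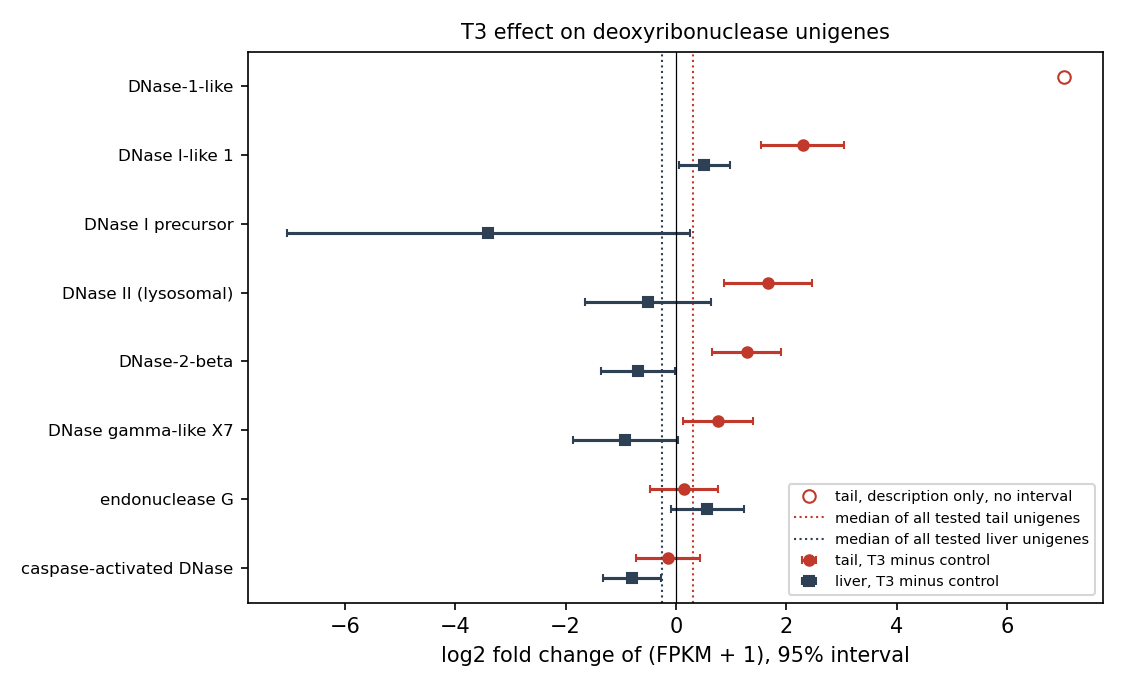
T3 effect on each deoxyribonuclease unigene, as the difference of log2(FPKM + 1) between T3 and control libraries with its 95% interval, in tail (red circles) and liver (dark squares), n = 3 a group; dotted lines are the medians of all unigenes tested, 0.31 in tail and -0.26 in liver. Deoxyribonuclease-1-like, the open circle at 7.03, is a description without interval, and the tail intervals of deoxyribonuclease I-like 1 precursor, deoxyribonuclease II and Deoxyribonuclease-2-beta lie above both medians.

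The 8 unigenes summed to 169 to 297 FPKM in T3 tails and 20.1 to 37.3 FPKM in control tails. Deoxyribonuclease-1-like took 56.5% to 69.1% of that sum in T3 tails, against 0% to 1.44% in control tails. Without it the other 7 still summed to 73.4 to 91.8 FPKM in T3 tails, against 20.1 to 37.2 FPKM in control tails. FPKM is scaled to transcript length, which is why these levels were set beside one another. Whether each unigene is a complete transcript was not examined, so the shares are approximate.

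In control tails no unigene took more than 29.4% of the sum, with DNase II and Deoxyribonuclease-2-beta at 16.2% to 29.4% and 18.7% to 22.4% of the sum and caspase-activated DNase at 12.8% to 17.8%. In T3 livers deoxyribonuclease I-like 1 precursor led with 38.7% to 55.6%, against 8.34% to 29.4% in control livers. The sum was 28.8 to 46.4 FPKM in T3 livers and 33.9 to 130.0 FPKM in control livers, the range of the controls being set by deoxyribonuclease I precursor.

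**Figure D4:**
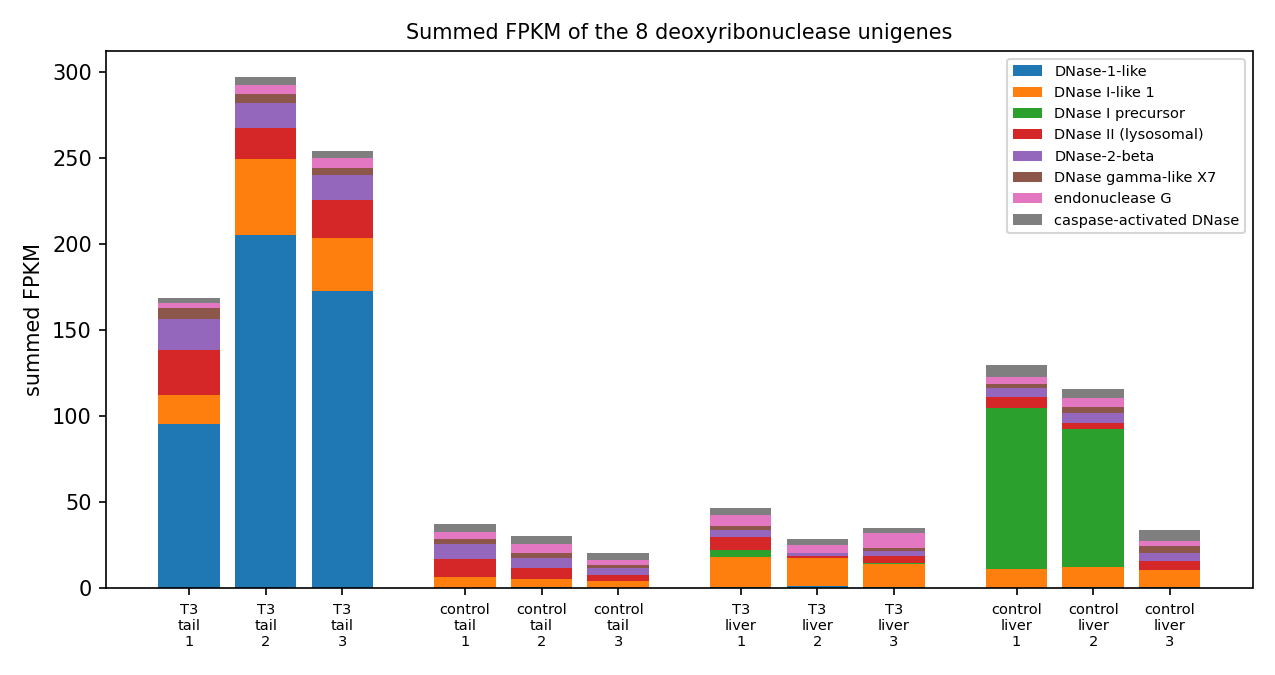
Summed FPKM of the 8 deoxyribonuclease unigenes in each library (bars from 0, coloured by unigene), T3 before control in each tissue. T3 tails sum to 169 to 297 FPKM, 56.5% to 69.1% of it deoxyribonuclease-1-like, and the tall bars of control livers 1 and 2 consist mostly of deoxyribonuclease I precursor.

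Over the 12 libraries the log2 level of deoxyribonuclease-1-like correlated with Deoxyribonuclease-2-beta (Pearson r = 0.802), deoxyribonuclease I-like 1 precursor (0.775) and deoxyribonuclease II (0.766). For the gamma-like unigene r was 0.545, for endonuclease G -0.005, for caspase-activated DNase -0.209 and for deoxyribonuclease I precursor -0.34. These values describe libraries of 2 tissues and 2 treatments. The contrast of T3 tails with control tails, on which deoxyribonuclease-1-like was picked, enters each of them. Among T3 tails deoxyribonuclease-1-like was lowest in T3 tail 1 (95.32 FPKM), as was deoxyribonuclease I-like 1 precursor (16.84 FPKM). Deoxyribonuclease II (26.32 FPKM) and Deoxyribonuclease-2-beta (17.83 FPKM) were highest in that library.

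The machinery that leads to apoptotic DNA cleavage was read beside the nucleases. Of 12 descriptions of caspases, their activators and cofactors tested in the tail, 3 rose and 1 fell, where 19.2% of all unigenes tested were called higher and 6.23% lower. The median of the list was 0.23, against 0.31 for all unigenes. APAF1, the scaffold on which caspase-9 is activated, averaged 23.3 ± 6.82 FPKM in T3 tails and 1.47 ± 0.507 FPKM in control tails (log2 difference 3.28, adjusted p = 3.5e-05, limma). Caspase-6, an executioner caspase, averaged 114 ± 46.8 FPKM in T3 tails and 28.9 ± 13.9 FPKM in control tails (1.97, adjusted p = 0.00767). Apoptosis-inducing factor, at 36.2 FPKM in T3 tails and 46.8 FPKM in control tails, was not called (-0.37, adjusted p = 0.297, limma). Nor was caspase-7, at 13.2 FPKM in T3 tails and 18.8 FPKM in control tails (-0.41, adjusted p = 0.339).

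Caspase-3, the executioner that frees caspase-activated DNase, was represented by unigenes that moved in opposite directions. The one annotated as Caspase-3 precursor fell to 4.07 ± 2.02 FPKM in T3 tails, against 66.7 ± 25.8 FPKM in control tails (-3.74, adjusted p = 1.1e-04, limma). The other, caspase-3, rose to 21.4 ± 6.07 FPKM in T3 tails, against 10 ± 4.3 FPKM in control tails (1.06, adjusted p = 0.0389). Which of them is the caspase-3 gene was not resolved. DNA fragmentation factor subunit alpha, the inhibitor of caspase-activated DNase, averaged 1.92 FPKM in T3 tails and 2.51 FPKM in control tails (-0.18, adjusted p = 0.699).

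Of the 10 descriptions of this list tested in the liver limma called 0, and 3 had an unadjusted p below 0.05. APAF1, the lower-expressed caspase-3 and DNA fragmentation factor subunit alpha were named after their values were seen. The tail-minus-liver difference was called as higher for 1 of 12 descriptions and as lower for 1 (all unigenes 14.3% and 3.48%). The T3 effect on APAF1 was larger in the tail than in the liver by 3.20 (adjusted p = 1.3e-04, limma). For Caspase-3 precursor the difference was -2.52 (adjusted p = 0.0135, limma). Without control livers 1 and 2, with 1 control liver left, the estimates were 3.03 for APAF1 and -1.74 for Caspase-3 precursor.

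Among other DNA-degrading enzymes 1 of 11 descriptions tested in the tail rose and 0 fell (all unigenes 19.2% and 6.23%), with a median of 0.48. It was TREX2, which trims DNA from its end, at 6.4 ± 2.07 FPKM in T3 tails and 1.95 ± 1.11 FPKM in control tails (1.37, adjusted p = 0.0148, limma; named after its value was seen). Phospholipase D3, a lysosomal exonuclease of single-stranded DNA, averaged 52.7 ± 14.2 FPKM in T3 tails and 28.8 ± 19.5 FPKM in control tails (1.02, adjusted p = 0.102).

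In the liver, where 12.5% of all unigenes were called, phospholipase D3 was the single call of 8 tested. It fell to 7.21 ± 3.46 FPKM in T3 livers, against 21.9 ± 2.97 FPKM in control livers (-1.55, adjusted p = 0.022, limma), and its T3 effects differed between tail and liver by 2.57 (adjusted p = 0.012). Without control livers 1 and 2 both calls were lost (-1.62, adjusted p = 0.267, and 2.64, adjusted p = 0.0734).

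Secreted and lysosomal ribonucleases, which digest RNA where DNases digest DNA, had 3 rises and 1 fall among 6 tested in the tail (all unigenes 19.2% and 6.23%), with a median of 0.91 against 0.31. Ribonuclease T2 precursor, the lysosomal ribonuclease, averaged 82.0 ± 4.26 FPKM in T3 tails and 30.5 ± 13.2 FPKM in control tails (1.49, adjusted p = 0.00773, limma). Its T3 effects differed between tail and liver by 2.74 (adjusted p = 0.00334), and by 2.82 without control livers 1 and 2 (adjusted p = 0.0349). Poly(U)-specific endoribonuclease-like averaged 91.4 ± 16.1 FPKM in T3 tails and 25.2 ± 16.4 FPKM in control tails (2.07, adjusted p = 0.0108), and onconase precursor, a secreted frog ribonuclease, 17.9 and 8.22 FPKM (1.16, adjusted p = 0.0424).

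The ribonuclease that fell in the tail was RC-RNase2, at 0.777 FPKM in T3 tails and 4.27 FPKM in control tails (-1.55, adjusted p = 0.00665, limma; named after its value was seen). In the liver 0 of 5 were called by limma, and 3 had an unadjusted p below 0.05. Poly(U)-specific endoribonuclease-D-like had 27.86, 0.26 and 0.82 FPKM in T3 livers, against 978.73, 1209.49 and 3.39 FPKM in control livers (-5.42, adjusted p = 0.145). Its high libraries were control livers 1 and 2, those with much pancreatic RNA. Control liver 3 lay within the range of the T3 livers, and without the other controls the unigene was too low to be tested.

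Enzymes that break down the nucleotides and nucleosides set free by nucleases had 9 rises and 2 falls among 24 descriptions tested in the tail, where 19.2% of all unigenes were called higher and 6.23% lower. The median of the list was 0.68, against 0.31 for all unigenes. Ectonucleoside triphosphate diphosphohydrolase 2, which removes phosphates from extracellular nucleotides, averaged 44.1 FPKM in T3 tails and 4.41 FPKM in control tails (3.21, adjusted p = 1.9e-04, limma). Ectonucleoside triphosphate diphosphohydrolase 8-like had a rise of 2.04 (adjusted p = 0.00639). AMP deaminase 3, at 70.7 FPKM in T3 tails and 93.0 FPKM in control tails, was not called (-0.35, adjusted p = 0.396, limma). Nor was purine nucleoside phosphorylase, at 42.9 FPKM in T3 tails and 35.6 FPKM in control tails (0.03, adjusted p = 0.963). Adenosine deaminase averaged 30.6 ± 6.13 FPKM in T3 tails and 5.45 ± 1.93 FPKM in control tails (2.32, adjusted p = 3.9e-04) and guanine deaminase rose by 2.44 (adjusted p = 7.3e-04), both named after their values were seen.

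The same list had 1 rise and 5 falls among 28 descriptions tested in the liver (all unigenes 3.83% and 8.67%), with a median of -0.47 against -0.26. Without control livers 1 and 2 limma called 0 of 25, and 6 had an unadjusted p below 0.05. Xanthine dehydrogenase/oxidase, which makes uric acid from purines, averaged 85.8 FPKM in T3 livers and 204 FPKM in control livers (-1.29, adjusted p = 0.0207, limma). Beta-ureidopropionase, of pyrimidine breakdown, fell in both tissues, by 1.36 in the tail (adjusted p = 0.00331) and by 1.38 in the liver (adjusted p = 0.00629). The tail-minus-liver difference was called as higher for 10 of 30 descriptions of this list and as lower for 1 (all unigenes 14.3% and 3.48%), and without control livers 1 and 2 for 7 and 0 of 28.

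Of sensors of stray DNA, 10 descriptions were tested in the tail, where 25.4% of all unigenes were called, and 1 rose, high mobility group protein B1, a chromatin protein that signals damage when released, at 76.1 FPKM in T3 tails and 35.3 FPKM in control tails (1.09, adjusted p = 0.00915, limma). Of 10 tested in the liver, where 12.5% of all were called, 1 fell, and 6 had an unadjusted p below 0.05 (limma). The median of the list there was -0.83, against -0.26 for all unigenes. The call was cyclic GMP-AMP synthase, which detects DNA in the cytosol, at 1.45 FPKM in T3 livers and 4.65 FPKM in control livers. Its difference was -1.24 (adjusted p = 0.0484, limma), and -1.59 without control livers 1 and 2, with 1 control liver left.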

How the data were processed

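Per the labels and the methods of the study, the authors sequenced poly(A) RNA (Illumina, paired ends), built unigenes with Trinity, searched them against NR for descriptions, and quantified them by Bowtie mapping and RSEM. Tool versions: not given in the sources used here. FPKM were used as deposited by the authors, with 2 decimals, and 5286 unigenes carry no description.

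Unigenes were tested where 3 or more libraries of the tissue reached 1 FPKM (of all 12 for the tail-minus-liver difference and for control liver against control tail). Groups were compared on log2(FPKM + 1) by limma 3.58.1, run under R 4.3.3 (two-sided, variance trend with intensity), with Benjamini-Hochberg adjustment over all unigenes tested and calls at adjusted p below 0.05. The tail-minus-liver difference and the control comparison used 1 mean for each of the 4 groups. The functions were tested on simulated data. Tables were made with pandas 2.3.3 and numpy 2.4.6 and figures with matplotlib 3.10.9.

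Members and lists were chosen with earlier results of these data known, and lists were corrected from annotation wording. Every member is named. For lists, 1 unigene was kept for each description. Members named came from the 4 with the highest mean FPKM in the tissue, but not all 4 were always named. Others are said to be named after their values were seen. Alternatives changed the pseudocount (0.1 and 5), filter, scaling, variance trend, replicate block, the summing of unigenes with 1 description, and the libraries used. The lists were fitted without control livers 1 and 2 as an alternative chosen after seeing the data. No sequences were used here.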

Additional observations from a re-analysis of the deposited data

Results flagged for a closer look

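The T3 effect differed between tail and liver for 4 deoxyribonuclease unigenes by the test of the difference itself (limma, tail minus liver, on the log2(FPKM + 1) scale). Of all 24085 unigenes tested for this difference 14.3% were called as higher and 3.48% as lower. The difference was 1.79 for deoxyribonuclease I-like 1 precursor, with positive estimates in both tissues. It was 2.17 for deoxyribonuclease II, 1.97 for Deoxyribonuclease-2-beta and 1.67 for deoxyribonuclease gamma-like isoform X7, each with a positive tail and a negative liver estimate. None of these liver estimates passed the test, nor did the tail estimate of the gamma-like unigene. The call was kept in 20 of 23 alternatives for deoxyribonuclease I-like 1 precursor, 22 of 23 for Deoxyribonuclease-2-beta, 9 of 23 for deoxyribonuclease II and 9 of 22 for the gamma-like unigene. Only the fit without control livers 1 and 2, described with each unigene above, left out both of these libraries with much pancreatic RNA. The tallies therefore say little about the part of these libraries.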

How the results depend on the processing

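Of 516 values of single deoxyribonucleases under the alternatives, 463 kept their direction and their side of the threshold, 33 lost a call, 5 gained one and 15 changed sign. The 3 calls in the tail held in every alternative run, and the count was 3 without each library in turn.

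The count called in the liver, 0, was 1 with the minimum of 5 FPKM and under median-ratio scaling, and 0 to 1 without each library in turn (1 without control liver 3). The call without control liver 3 was deoxyribonuclease I precursor, chosen through control livers 1 and 2 and T3 liver 1. The count for the tail-minus-liver difference, 4, was 2 with pseudocount 0.1, 2 with no filter, 1 under median-ratio scaling and 1 under quantile normalization. It was 2 to 4 without each library in turn. It was 2 without T3 tail 1, T3 tail 2, control tail 2, control tail 3, T3 liver 2 or control liver 1. The count for control liver against control tail was 2 with deoxyribonuclease I precursor, bound to differ. The count was 1 with the minimum of 5 FPKM and 1 to 2 without each library in turn (1 without control tail 3, T3 liver 1, control liver 1 or control liver 2). Deoxyribonuclease I precursor was not tested without T3 liver 1, control liver 1 or control liver 2, nor with the minimum of 5 FPKM. The fit without control livers 1 and 2 assumes that the lone control liver varies like the other libraries, so its calls cannot decide these counts. The cause of the other changes was not tested.

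Sign changes concerned values that had no call. In the tail endonuclease G was -0.17 under median-ratio scaling and -0.21 under quantile normalization, and caspase-activated DNase was 0.05 with equal library sums and 0.02 without T3 tail 1 (-0.27 to 0.02 without each library in turn). Deoxyribonuclease II in the liver was 0.03 without T3 liver 2 (range -0.97 to 0.03). For control liver against control tail, deoxyribonuclease II and Deoxyribonuclease-2-beta were both 0.11 without control tail 1 (ranges -0.63 to 0.11 and -0.34 to 0.11), and the gamma-like unigene was -0.02 without control tail 3 (range -0.02 to 0.33). There endonuclease G was -0.07 with equal sums, -0.01 under median-ratio scaling, -0.04 under quantile normalization, -0.03, -0.07 and -0.13 without control tail 1, control tail 3 and control liver 2 (range -0.13 to 0.16), and -0.21 without control livers 1 and 2.

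Over all unigenes, calls in the tail numbered 4688, and 2750 with no filter. Their split was 3540 higher and 1148 lower, and 2601 and 2586 under median-ratio scaling. In the liver 2365 were called, 1069 with no filter and 127 without control livers 1 and 2, and the split of 725 higher and 1640 lower was 979 and 661 under median-ratio scaling. The difference gave 4279, 2722 with no filter, 2848 under quantile normalization and 1168 without control livers 1 and 2. Control liver against control tail gave 10321, 6350 with the minimum of 5 FPKM and 5537 without control livers 1 and 2. Without each library in turn, calls numbered 2231 to 5833 in the tail, 637 to 1687 in the liver and 2149 to 5591 for the difference.

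The labels number the libraries 1 to 3 in each group. Same-numbered T3 and control libraries deviated together only weakly (correlations of 0.0483, 0.032 and 0.0728 in the tail, 0.238, 0.0723 and 0.149 in the liver). Unlike numbers had -0.104 to 0.0592 in the tail and -0.237 to 0.0789 in the liver. Whether the numbers pair T3 with control was not settled, and the main fits did not pair them. Same-numbered tail and liver libraries had 0.0949, 0.19 and 0.0852 in controls, with -0.143 to 0.0414 for unlike numbers. In T3 groups they had 0.0878, -0.0655 and 0.191, with -0.23 to 0.119 for unlike numbers. Whether tail and liver shared tadpoles was not settled, and the main fits across tissues treated all libraries as independent. With the replicate number as a block, the counts called were 3 in the tail, 0 in the liver, 4 for the difference and 2 for the control comparison. The last includes deoxyribonuclease I precursor, bound to differ.

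Depth is unknown from FPKM, and values near 0, such as those of deoxyribonuclease-1-like in control tails, carry no counting error here.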
